A study of Mus musculus with 8 samples.

Results

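Mouse embryonic stem cells (mESCs) given BMP4 and an ALK5 inhibitor were compared with 2i cultures across all expressed genes. The comparison used 5 of the 8 RNA-seq libraries of the series, all 5 from the R1 mESC line grown in serum-containing medium without feeder cells. The reference arm was made of 1 library from 2i (CHIR99021 at 3 µM, an inhibitor of GSK3, with PD0325901 at 1 µM, an inhibitor of MEK) and 1 library from 2iJ (2i with a JAK inhibitor at 2.0 µM), both from day 5. The other arm was made of 3 libraries from 2iJ+B-A (2iJ with BMP4 at 10 ng/ml and ALK5 inhibitor II at 10 µM), from days 2, 5 and 11. BMP4 and ALK5 inhibitor were always given together, and the JAK inhibitor was absent from 1 of the 2 reference libraries, so the parts of the 3 agents cannot be told apart. Nothing in the labels says whether the libraries came from separate cultures, and each arm pools different days or media as its samples, so p-values measure the spread between these samples, change with time included. The remaining 3 libraries are mesoderm progenitors and Cdx2-GFP+ cells sorted from another line.

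BMP4 is a secreted ligand that acts through receptor kinases and the transcription factors SMAD1, SMAD5 and SMAD9, which switch on the Id genes and other early targets. ALK5 (Tgfbr1) is the type I receptor for TGF-beta, and inhibitors of its kinase also block the related receptors for Activin and Nodal, which signal through SMAD2 and SMAD3. JAK kinases carry the signal of LIF, a cytokine that sustains mESC self-renewal. BMP4 is known for bringing pluripotent cells towards trophoblast and mesoderm fates, whereas Nodal is made by mESCs themselves and maintains its own feedback inhibitors.

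The 5 libraries held between 24532587 and 31453888 read pairs assigned to genes. Between 2.165% and 3.85% of pairs were unmapped, and between 15271 and 15950 genes had at least 10 counts. A total of 3 counts, the smallest level treated as detected, corresponded to between 0.0954 and 0.122 CPM (gene counts scaled by the total of the library). The labelled cell type was checked with Pou5f1, the core factor of mESCs, which had 1043 CPM in 2i, 977 in 2iJ and 866, 896 and 1075 on days 2, 5 and 11 of 2iJ+B-A. Sox2 had 669.9 CPM in 2i, 643.5 in 2iJ and 596.6, 514 and 559.9 on days 2, 5 and 11 of 2iJ+B-A. Its 3 values in 2iJ+B-A lay below both references, and it did not pass. Nanog, the other marker of mESC identity, was lower in 2iJ+B-A, with 985 CPM in 2i, 773 in 2iJ and 581, 506 and 538 on days 2, 5 and 11 (edgeR adjusted p = 0.0391). Of 8 fibroblast markers, which would mark feeder cells, 7 could be tested and 0 passed in edgeR (1 higher in DESeq2), with a summed level of 13.5 to 24.4 CPM. Dcn was at 0 in both references and at most 0.26 CPM in 2iJ+B-A. The largest differences were in Lum, Col3a1 and Postn, with log2 fold changes of 3.93, 2.92 and 2.44 and at most 1.78 CPM in any library. These 3 genes reached 10 counts in 2iJ+B-A alone and could only rise. Without day 2, 3 of the 7 markers passed as higher. Among 4 blood markers, Ptprc, Hbb-bh1 and Hba-x were at 0 in every library and Gata1 was at most 3.53 CPM.

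Of 16235 genes tested with edgeR, 832 (5.12%) had an adjusted p-value under 0.05. Expression was higher in 2iJ+B-A for 403 of them (2.48%) and lower for 429 (2.64%). The change was at least 1 log2 unit for 342 of the higher and 327 of the lower genes. The 3 libraries of 2iJ+B-A all lay above both references, or all below, for each of the 832 genes. Over all tested genes such a separation was common, with 26.8% entirely above and 17.3% entirely below. The median log2 fold change was 0.01, a value that TMM scaling sets near 0.

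**Figure D1:**
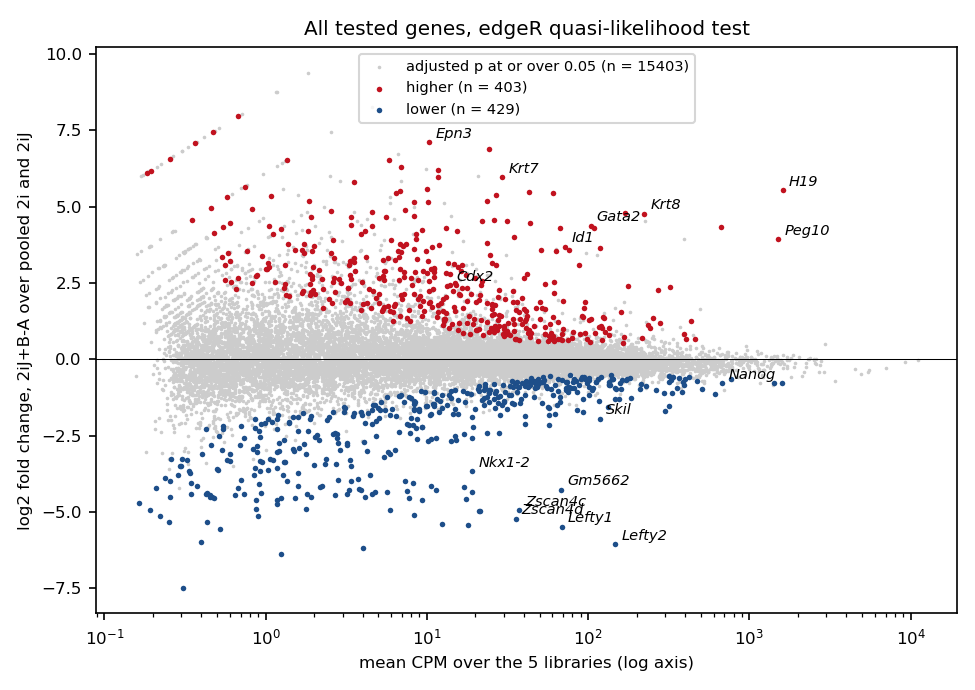
Log2 fold change of 2iJ+B-A over the pooled 2i and 2iJ libraries (vertical axis) against mean CPM over the 5 libraries (log axis), 1 point per tested gene, with the 403 higher genes in red and the 429 lower genes in blue. Keratins, Peg10 and H19 stand out among abundant genes that rose, and Lefty2, Lefty1 and the Zscan4 genes among those that fell.

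The number of genes that passed depended on single libraries. With the 2i library left out, 0 genes passed in edgeR (1667 had an unadjusted p under 0.05), and with the 2iJ library left out 9 passed. When day 5 of 2iJ+B-A was left out, 86 passed, whereas leaving out its day 2 gave 1476 higher and 1156 lower genes. The Wald test of DESeq2 called 1252 higher and 983 lower genes on the same 5 libraries. In each of the 14 alternatives run, 0 of the 832 genes that could be tested changed direction. The arms do not overlap for any of the 832, so this was largely fixed in advance and is no support for the calls. Since the calls depended on single libraries, BMP4 response genes, keratins, imprinted genes and two-cell genes below are given with their value in each library.

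Of 273 genes that passed with at least 10 CPM in the higher arm, the 12 largest rises were in Epn3, Slc22a3, 4932442L08Rik, Tmprss2, Sct, Krt7, Plac1, H19, Tubb4, Nxf7, Tgm2 and Dusp8. Epn3, an adaptor of clathrin-mediated endocytosis (chromosome 11, 94350913 to 94361288 of NCBIM37, minus strand), had 0 CPM in 2i, 0.23 in 2iJ and 6.16, 29.9 and 15.6 on days 2, 5 and 11 of 2iJ+B-A (log2 fold change 7.11 ± 1.09, edgeR adjusted p = 0.0212, where ± is the SE here and below). Its reference arm rests on 6 read pairs. Tmprss2, a membrane-bound serine protease (chromosome 16, 97786291 to 97832802, minus strand), had 0.14 CPM in 2i, 0.35 in 2iJ and 8.23, 30.5 and 19.4 on days 2, 5 and 11 of 2iJ+B-A (log2 fold change 6.21 ± 0.74, edgeR adjusted p = 0.0123). Slc22a3, a transporter of organic cations, had 0.14 CPM in 2i, 0.51 in 2iJ and 14.5, 74.4 and 32.4 on days 2, 5 and 11 of 2iJ+B-A. In these 3 genes day 5 was the highest and day 2 the lowest of the 2iJ+B-A libraries, and all 3 libraries lay far above both references.

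Tgm2, a transglutaminase that cross-links proteins, had 1.81 CPM in 2i, 2.49 in 2iJ and 14.8, 204 and 81.7 on days 2, 5 and 11 of 2iJ+B-A (log2 fold change 5.44 ± 1.11, edgeR adjusted p = 0.0414). Sct encodes the hormone secretin and had 0.036 CPM in 2i, 0.54 in 2iJ and 5.26, 40.95 and 12.1 on days 2, 5 and 11 of 2iJ+B-A. Dusp8, a phosphatase of MAP kinases, had 0.071 CPM in 2i, 0.39 in 2iJ and 5.83, 17.1 and 8.76 on days 2, 5 and 11 of 2iJ+B-A. Tubb4, a beta-tubulin, and Nxf7, of the nuclear RNA export factor family, had log2 fold changes of 5.53 and 5.47. The 4932442L08Rik gene on the X chromosome had 0.036 CPM in 2i, 0.23 in 2iJ and 3.79, 18.9 and 11.6 on days 2, 5 and 11 of 2iJ+B-A. In all 12 genes 2iJ lay above 2i, and day 5 was the highest of the 3 days except for H19, which was highest on day 11. Epn3, 4932442L08Rik, Tubb4, Dusp8, Tmprss2, Sct, Slc22a3 and Plac1 had only 6 to 17 read pairs over both references. The order of 2i and 2iJ is uncertain in these genes.

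**Figure D2:**
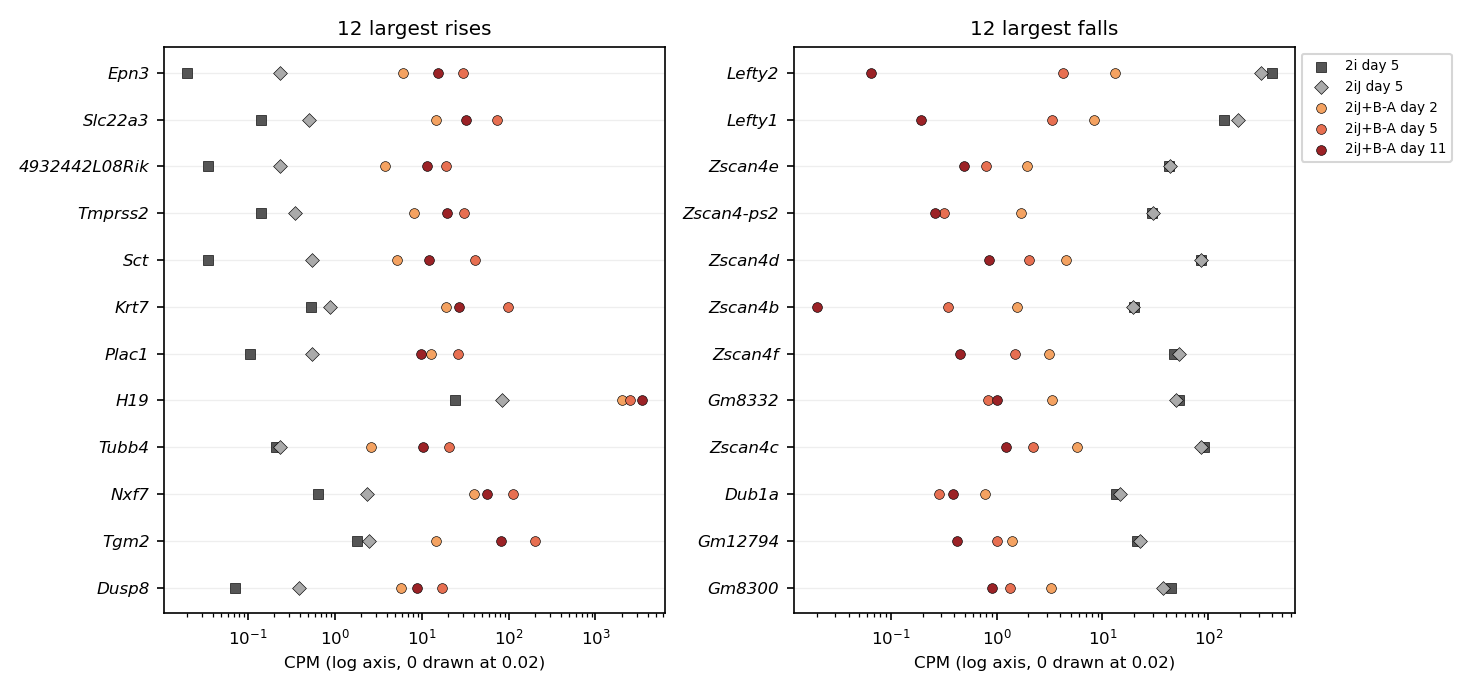
CPM (log axis) of the 12 genes with the largest rise and the 12 with the largest fall in each of the 5 libraries, with squares for 2i, diamonds for 2iJ and circles for days 2, 5 and 11 of 2iJ+B-A and a level of 0 drawn at 0.02. Circles and reference symbols do not overlap in any row, and the circles of the falling genes move furthest from the references on day 5 or day 11.

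Across the 403 higher genes, day 5 was the highest of the 3 days for 241, day 11 for 113 and day 2 for 49. Across the 429 lower genes, the lowest day was day 2 for 121, day 5 for 138 and day 11 for 170. Among all tested genes the highest day was day 2, 5 or 11 for 5665, 5219 and 5351, and the lowest day for 6968, 3645 and 5622. The 2iJ library lay above the 2i library for 310 of the 403 higher genes (76.9%), against 53.7% of all tested genes. Each day and each reference is 1 library, so these counts are a description and the part of the JAK inhibitor in them was not tested.

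Direct targets of BMP signalling were examined first. Of 19 tested genes of this class, 9 rose and 0 fell (47.4% called, against 5.12% of all tested genes). The median log2 fold change was 2.48 (the median over all genes was 0.01). The largest rises were in Gata2, Dlx3, Dlx5 and Id1. Id1 (ENSMUSG00000042745; chromosome 2, 152561987 to 152563146 of NCBIM37, plus strand), an inhibitor of basic helix-loop-helix factors, had 5.12 CPM in 2i, 11.8 in 2iJ and 103, 109.6 and 132 on days 2, 5 and 11 of 2iJ+B-A. The 3 libraries of 2iJ+B-A averaged 115 ± 15.04 CPM (SD, n = 3), and the log2 fold change was 3.70 ± 0.36 (SE, edgeR adjusted p = 0.00928). All 3 days lay close together and far above both references. Id2, of the same family, had 6.39 CPM in 2i, 13 in 2iJ and 159.9, 97.5 and 104 on days 2, 5 and 11 of 2iJ+B-A (log2 fold change 3.57 ± 0.39, edgeR adjusted p = 0.00928). Id3 had 11.97 CPM in 2i, 15.3 in 2iJ and 72.4, 86.5 and 82.5 on days 2, 5 and 11 of 2iJ+B-A (log2 fold change 2.48 ± 0.17, edgeR adjusted p = 0.00928). Id4, the remaining member of the family, did not pass, at 12.8 CPM in 2i, 16.4 in 2iJ and 23.5, 16.7 and 24.7 on days 2, 5 and 11 of 2iJ+B-A.

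Gata2, a zinc-finger transcription factor of trophoblast and blood, had 3.02 CPM in 2i, 12.3 in 2iJ and 172, 210.1 and 119.9 on days 2, 5 and 11 of 2iJ+B-A (log2 fold change 4.38 ± 0.59, edgeR adjusted p = 0.0163). Msx2, a homeobox gene that BMP is known to induce in ectoderm and limb, had 7.603 CPM in 2i, 9.96 in 2iJ and 73.9, 70.2 and 47.3 on days 2, 5 and 11 of 2iJ+B-A (log2 fold change 2.78 ± 0.26, edgeR adjusted p = 0.00928). Both were highest on day 2 or day 5 and lower on day 11. The homeobox gene Dlx3 had 0.43 CPM in 2i, 0.78 in 2iJ and 8.76, 14.7 and 5.44 on days 2, 5 and 11 of 2iJ+B-A (log2 fold change 3.91 ± 0.56, edgeR adjusted p = 0.0189). Dlx5 had 0.14 CPM in 2i, 0.16 in 2iJ and 0.86, 3.21 and 2.54 on days 2, 5 and 11 of 2iJ+B-A, from 8 read pairs in the references, where neither library reached 10 counts, so that it could only rise. Smad9, a transducer that is itself induced by BMP, rose by 2.25 log2 units (edgeR adjusted p = 0.0199), and Bambi, a pseudoreceptor that dampens BMP and TGF-beta signals, by 1.33 (0.03). The inhibitory SMAD genes did not pass, with log2 fold changes of 1.48 for Smad6 and -0.86 for Smad7. Hey1 was at 4.16 and 10.6 CPM in 2i and 2iJ and 2.49, 1.53 and 1.497 CPM on days 2, 5 and 11 and did not pass (edgeR adjusted p = 0.052). Without the day 5 library 4 members of the class passed, and without day 2 there were 13 higher and 2 lower.

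The upstream sequence of Id2 is given as that of an Id gene that rose. Of the 832 called genes, 520 had a RefSeq promoter entry (GRCm38.p6) under the same symbol. The 250 bases before the start of Id2 (chr12:25096093-25096342, minus strand) hold 1 match, in capitals, to GGCGCC, a GC-rich element known for binding SMAD1 and SMAD5.
Id2: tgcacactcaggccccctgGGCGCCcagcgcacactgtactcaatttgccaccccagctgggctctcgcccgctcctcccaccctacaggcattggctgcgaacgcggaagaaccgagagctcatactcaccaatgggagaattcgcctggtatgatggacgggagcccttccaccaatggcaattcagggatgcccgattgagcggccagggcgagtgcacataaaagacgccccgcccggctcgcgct
The corresponding window of Id3 (chr4:136143572-136143821, plus strand) has no GGCGCC. Over all windows (250 bases before to 50 after the start, both strands searched), the 6 letters occurred in 11.9% of 32851. They occurred in 20.4% of windows of higher genes, in 18.6% of windows of lower genes and in 20.3% of windows of genes that were tested and not called.

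Of 16 tested receptor and transducer genes, 0 passed in either direction and the median log2 fold change was 0.12. In edgeR the unadjusted count over all genes was 2156 higher and 1825 lower, and 2 of these 16 genes passed as higher with DESeq2. Tgfbr2, the type II receptor for TGF-beta, had the largest value, with 0.14 CPM in 2i, 0.54 in 2iJ and 0.98, 3.59 and 4.66 on days 2, 5 and 11 of 2iJ+B-A (edgeR adjusted p = 0.0827). Tgfbr1, which encodes the inhibited kinase ALK5, had 63.3 CPM in 2i, 66.5 in 2iJ and 79.2, 85.7 and 103 on days 2, 5 and 11 of 2iJ+B-A. Bmpr1a, a receptor of BMP4, had 93.4 CPM in 2i, 91.6 in 2iJ and 140.3, 129 and 124 on days 2, 5 and 11 of 2iJ+B-A (edgeR adjusted p = 0.0982). Tgfbr3 and Bmpr1b had log2 fold changes of 0.68 and -0.61.

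Of 16 tested targets of Nodal, Activin and TGF-beta, 5 fell and 1 rose (37.5% called, against 5.12% of all tested genes). The median log2 fold change was -1.20. Lefty2 (chromosome 1, 182823239 to 182829234, plus strand), a secreted inhibitor of Nodal that Nodal induces, had the largest fall among all named genes, with 399.9 CPM in 2i, 316 in 2iJ and 13.1, 4.26 and 0.065 on days 2, 5 and 11 of 2iJ+B-A (log2 fold change -6.05 ± 1.13, edgeR adjusted p = 0.0339). Lefty1, its neighbour on chromosome 1 at 182865153 to 182868531, had 141 CPM in 2i, 189 in 2iJ and 8.36, 3.31 and 0.2 on days 2, 5 and 11 of 2iJ+B-A (log2 fold change -5.48 ± 0.94, edgeR adjusted p = 0.0278). Both were lower on each later day, from day 2 to day 5 to day 11. Skil, a SMAD co-repressor that TGF-beta induces, had 195 CPM in 2i, 223 in 2iJ and 71.5, 45.5 and 54.5 on days 2, 5 and 11 of 2iJ+B-A (log2 fold change -1.94 ± 0.21, edgeR adjusted p = 0.00928), a change that stayed near the same size on all 3 days.

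Tdgf1 (Cripto), the co-receptor of Nodal, had 565 CPM in 2i, 448 in 2iJ and 180.3, 118 and 193 on days 2, 5 and 11 of 2iJ+B-A (log2 fold change -1.70 ± 0.24, edgeR adjusted p = 0.0172). Eomes, a T-box factor of streak and trophoblast, had 18.97 CPM in 2i, 13.2 in 2iJ and 4.16, 4.04 and 2.57 on days 2, 5 and 11 of 2iJ+B-A (log2 fold change -2.25 ± 0.31, edgeR adjusted p = 0.0172). Gsc (goosecoid) was the member that rose, from 23 read pairs over both references, at 0.53 CPM in 2i, 0.31 in 2iJ and 1.63, 2.23 and 2.02 on days 2, 5 and 11 of 2iJ+B-A (log2 fold change 2.11 ± 0.45, edgeR adjusted p = 0.0454). Nodal itself did not pass, with 77.7 CPM in 2i, 105 in 2iJ and 45.4, 75.6 and 123 on days 2, 5 and 11 of 2iJ+B-A. Foxa2 was at 0.11 and 0.16 CPM in 2i and 2iJ and 0.45, 1.56 and 10.3 CPM on days 2, 5 and 11 without passing. Without day 5, 2 of the lower genes passed, and without day 11 there were 6.

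Of 25 tested genes of trophectoderm and trophoblast, 13 rose and 1 (Eomes) fell, with a median log2 fold change of 1.93. The list includes Cdx2, Hand1 and other trophectoderm genes that the study examined in these cultures. Cdx2 (chromosome 5, 148112381 to 148118846, minus strand), the homeobox factor of trophectoderm, had 3.16 CPM in 2i, 4.12 in 2iJ and 15, 30.1 and 17.5 on days 2, 5 and 11 of 2iJ+B-A (log2 fold change 2.43 ± 0.36, edgeR adjusted p = 0.0197). It passed in 8 of the 14 alternatives. Hand1, a helix-loop-helix factor of trophoblast giant cells and lateral mesoderm, had 1.03 CPM in 2i, 7.67 in 2iJ and 37.5, 99.5 and 8.98 on days 2, 5 and 11 of 2iJ+B-A and did not pass (log2 fold change 3.41 ± 1.14, edgeR adjusted p = 0.129). On day 11 it was close to the 2iJ level.

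Plac1, an X-linked placental gene (chromosome X, 50423172 to 50593288, minus strand), had 0.11 CPM in 2i, 0.54 in 2iJ and 12.96, 26.5 and 9.73 on days 2, 5 and 11 of 2iJ+B-A (log2 fold change 5.58 ± 0.75, edgeR adjusted p = 0.0159). Gcm1, the factor of labyrinth trophoblast, had 0.96 CPM in 2i, 3.503 in 2iJ and 17.5, 27.8 and 18.1 on days 2, 5 and 11 of 2iJ+B-A (log2 fold change 3.17 ± 0.54, edgeR adjusted p = 0.0276). Esx1, an X-linked homeobox gene of placenta, had 3.27 CPM in 2i, 3.503 in 2iJ and 37.9, 62.5 and 15.8 on days 2, 5 and 11 of 2iJ+B-A (log2 fold change 3.43 ± 0.57, edgeR adjusted p = 0.0257). All 3 peaked on day 5. Ascl2 and Gata3, regulators of trophoblast, rose by 1.72 (edgeR adjusted p = 0.0215) and 1.93 (0.0443) log2 units. Other factors of the lineage did not pass, with log2 fold changes of -0.07 for Tead4, -0.05 for Elf3 and 0.40 for Tcfap2c. Elf5 was below 1 CPM in all 5 libraries. Day 5 was the highest 2iJ+B-A library for 19 of the 25 genes. Without that library 4 genes passed, and without day 2 or day 11 there were 15 and 13 higher.

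Of 31 tested keratins and junction proteins of simple epithelium, 12 rose and 1 fell, with a median log2 fold change of 1.41, and the keratins Krt7, Krt8, Krt18 and Krt19 are also in the trophoblast list. Krt8, a type II keratin, had 8.88 CPM in 2i, 16.1 in 2iJ and 198, 594 and 301 on days 2, 5 and 11 of 2iJ+B-A (log2 fold change 4.78 ± 0.55, edgeR adjusted p = 0.0106). Krt18, its type I partner and neighbour on chromosome 15, had 5.47 CPM in 2i, 13.2 in 2iJ and 160.5, 448 and 222 on days 2, 5 and 11 of 2iJ+B-A (log2 fold change 4.81 ± 0.59, edgeR adjusted p = 0.0129). Both genes were highest on day 5 and lowest on day 2 among the 3 days. Krt7 had 0.53 CPM in 2i, 0.9 in 2iJ and 19.2, 98.3 and 27.2 on days 2, 5 and 11 of 2iJ+B-A (log2 fold change 5.98 ± 0.90, edgeR adjusted p = 0.0204), with day 5 well above the other days. Krt19 had 2.52 CPM in 2i, 3.97 in 2iJ and 25.03, 99.8 and 41.5 on days 2, 5 and 11 of 2iJ+B-A.

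The claudins that rose, proteins that seal tight junctions, were Cldn4, Cldn6 and Cldn7. Cldn7 had 1.31 CPM in 2i, 1.91 in 2iJ and 19.3, 19.04 and 8.98 on days 2, 5 and 11 of 2iJ+B-A (log2 fold change 3.21 ± 0.44, edgeR adjusted p = 0.017). Cldn4 had 48.5 CPM in 2i, 39.6 in 2iJ and 136, 154 and 82.2 on days 2, 5 and 11 of 2iJ+B-A (log2 fold change 1.41 ± 0.27, edgeR adjusted p = 0.0359), and Cldn6 had 11.2 CPM in 2i, 22.2 in 2iJ and 54.2, 51.9 and 59.96 on days 2, 5 and 11 of 2iJ+B-A (log2 fold change 1.66 ± 0.29, edgeR adjusted p = 0.0278). The desmosomal cadherin Dsc2, the annexins Anxa2 and Anxa3 and the tetraspan protein Perp had log2 fold changes of 2.86, 1.69, 3.10 and 1.91. Krt42 fell, at 6.502 and 5.45 CPM in 2i and 2iJ and 1.02, 0.38 and 0.36 CPM on days 2, 5 and 11 (log2 fold change -3.44 ± 0.52, edgeR adjusted p = 0.0204). Cdh1 (E-cadherin), with 525 CPM in 2i, 551 in 2iJ and 616, 844 and 723 on days 2, 5 and 11 of 2iJ+B-A, and Tjp1, with a log2 fold change of -0.12, did not pass. Without day 5 there were 5 higher genes in this class.

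Markers of surface ectoderm and neural crest gave 3 higher and 0 lower of 12 (25% called, against 5.12% of all tested genes), with a median of 2.36. The 3 were Dlx3, Dlx5 and Msx2, which are also BMP targets. Wnt6, a ligand of surface ectoderm, had 0.36 CPM in 2i, 0.66 in 2iJ and 5.22, 9.12 and 1.85 on days 2, 5 and 11 of 2iJ+B-A without passing (edgeR adjusted p = 0.052). For 10 of the 12 genes all 3 libraries lay above both references, against 26.8% of all genes. For 4 of these 10, Dlx5 among them, neither reference reached 10 counts. They were tested only because of their 2iJ+B-A counts and could only rise, so this count and the median are a description. Neuroectoderm gave 0 of 9 (median 0.54, with 1 higher in DESeq2), with Sox21 at 3.62 and 3.31 CPM in 2i and 2iJ and 7.91, 13.9 and 22.7 CPM on days 2, 5 and 11 (edgeR adjusted p = 0.0518), Pax3 below 1 CPM throughout, and Ncam1 at a log2 fold change of -1.08.

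**Figure D3:**
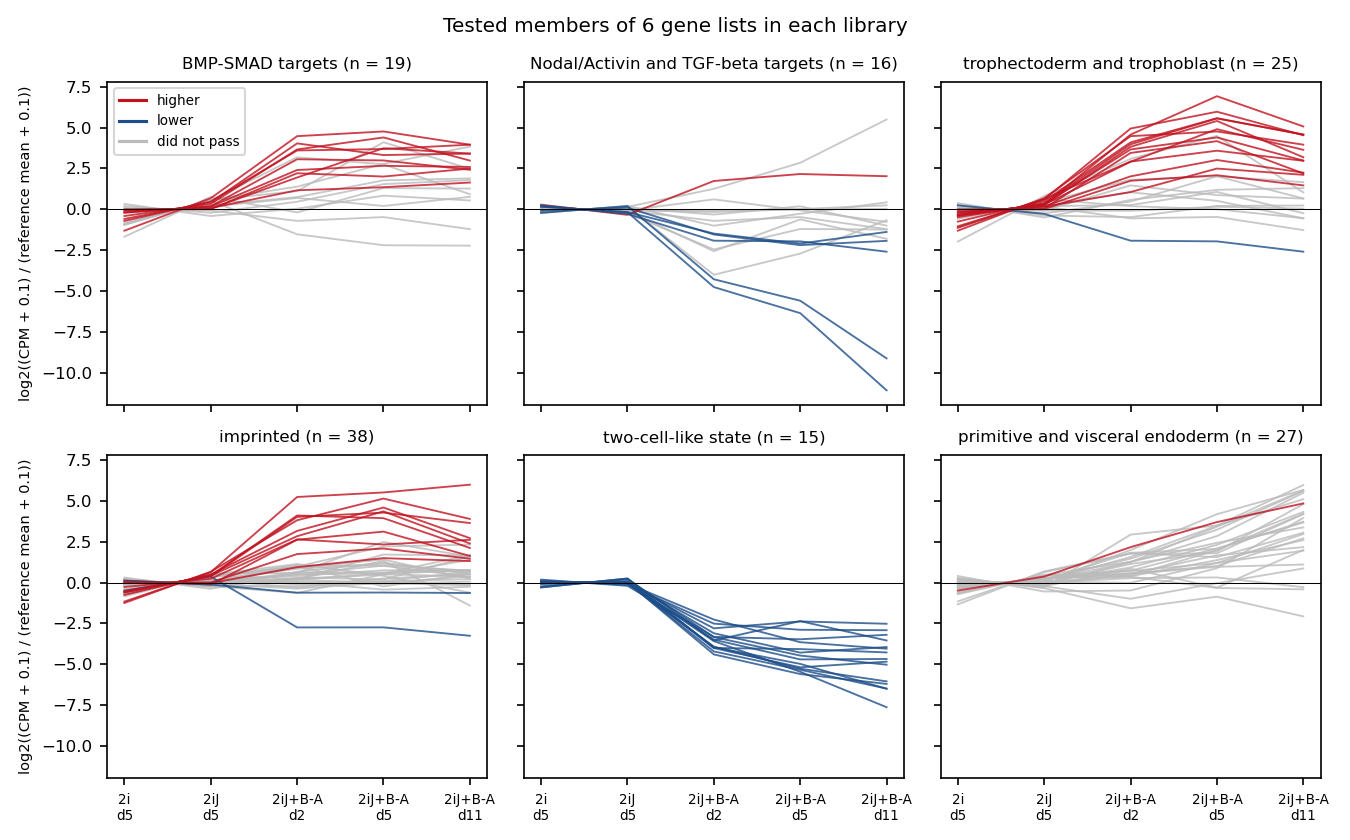
Log2 ratio of each tested gene of 6 lists to the mean of 2i and 2iJ, with 0.1 CPM added to both, in the 5 libraries (horizontal axis), with genes that rose in red, genes that fell in blue and the rest in grey. Most trophoblast genes (19 of 25) are highest on day 5, two-cell genes are lower on all 3 days, and most endoderm genes climb to day 11 without passing.

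Imprinted genes, which are expressed from 1 parental copy and many of which act in placental growth, contributed some of the most abundant transcripts that changed. Of 38 tested, 10 rose and 2 fell (31.6% called, against 5.12% of all tested genes), with a median log2 fold change of 0.73. H19, a maternally expressed noncoding RNA (chromosome 7, 149761434 to 149764048, minus strand), had 24.1 CPM in 2i, 84.1 in 2iJ and 2043, 2476 and 3443 on days 2, 5 and 11 of 2iJ+B-A (log2 fold change 5.54 ± 0.61, edgeR adjusted p = 0.00928). It rose 49.0-fold by mean CPM. Igf2, the paternally expressed growth factor beside it (149836673 to 149852721, minus strand), had 21.1 CPM in 2i, 79.7 in 2iJ and 709.5, 1779 and 749.7 on days 2, 5 and 11 of 2iJ+B-A (log2 fold change 4.34 ± 0.70, edgeR adjusted p = 0.0242). Peg10, a retrotransposon-derived gene needed for placenta (chromosome 6, 4697306 to 4710514, plus strand), had 105 CPM in 2i, 197 in 2iJ and 2447, 2935 and 1884 on days 2, 5 and 11 of 2iJ+B-A (log2 fold change 3.93 ± 0.34, edgeR adjusted p = 0.00928). Peg10 and Id1 passed in 12 of the 14 alternatives, more than other named genes except Fabp3, which also passed in 12.

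Several of the imprinted genes that rose are neighbours. H19 and Igf2 lie in a run of called genes on chromosome 7 from 149557053 to 149856261 with Ctsd, Lsp1 and Igf2as. Igf2as lies on the strand opposite Igf2 and its level was 2.02% to 5.37% of that of Igf2, near the 5.51% to 6.47% of pairs assigned to the wrong strand, so it is not taken as an expressed gene here. A second run on chromosome 7, from 150644255 to 150688446, holds Cdkn1c, Slc22a18 and Phlda2. Cdkn1c (p57), an inhibitor of the cell cycle, had 8.31 CPM in 2i, 19.96 in 2iJ and 127, 343 and 93.5 on days 2, 5 and 11 of 2iJ+B-A (log2 fold change 3.65 ± 0.67, edgeR adjusted p = 0.0322). Phlda2, which restrains placental growth, had 5.26 CPM in 2i, 10.9 in 2iJ and 141, 126 and 35.5 on days 2, 5 and 11 of 2iJ+B-A (log2 fold change 3.56 ± 0.66, edgeR adjusted p = 0.0326). Slc22a18 rose by 2.63 log2 units (edgeR adjusted p = 0.041).

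Sgce, the neighbour of Peg10 on chromosome 6, had 3.09 CPM in 2i, 4.44 in 2iJ and 23.9, 19.3 and 23.6 on days 2, 5 and 11 of 2iJ+B-A (log2 fold change 2.49 ± 0.26, edgeR adjusted p = 0.00928). The paternally expressed Dlk1 and Dio3, which share a domain on chromosome 12, had log2 fold changes of 3.50 and 1.19, while Meg3, the noncoding RNA of that domain, had 62.8 CPM in 2i, 50.05 in 2iJ and 63.02, 83.01 and 181 on days 2, 5 and 11 of 2iJ+B-A and did not pass. Peg3 had 40.6 CPM in 2i, 81.5 in 2iJ and 120.2, 282 and 306 on days 2, 5 and 11 of 2iJ+B-A without passing (edgeR adjusted p = 0.0603). Usp29, which shares the domain of Peg3, fell at 8.53 and 15.6 CPM in 2i and 2iJ and 1.71, 1.72 and 1.17 CPM on days 2, 5 and 11 (log2 fold change -3.05 ± 0.36, edgeR adjusted p = 0.0118), and Ube3a fell with a log2 fold change of -0.71 (0.0313). Snrpn, Impact, Mest and Plagl1 stayed between log2 fold changes of -0.28 and 0.11. Without day 5, 3 of the list passed as higher, and without day 2 there were 14.

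Called genes were also counted by position. On the X chromosome 36 of 618 tested genes rose (5.83%) and 14 fell (2.27%). The share that rose on single autosomes lay between 1.29% on chromosome 13 and 3.9% on chromosome 3. Besides Plac1, Nxf7, Esx1 and 4932442L08Rik, the X-linked genes that rose included Rhox6, a reproductive homeobox gene, with 3.38 CPM in 2i, 13.5 in 2iJ and 182, 271 and 72.9 on days 2, 5 and 11 of 2iJ+B-A (log2 fold change 4.30 ± 0.76, edgeR adjusted p = 0.03). Nrk, a kinase known from trophoblast, had 3.62 CPM in 2i, 6.62 in 2iJ and 50.02, 186 and 89.1 on days 2, 5 and 11 of 2iJ+B-A, and Dusp9, a phosphatase of ERK, had 70.7 CPM in 2i, 106 in 2iJ and 403, 664 and 373 on days 2, 5 and 11 of 2iJ+B-A. Zfp36l3, a placental RNA-binding protein, had 0.92 CPM in 2i, 2.02 in 2iJ and 24.7, 58.9 and 23.6 on days 2, 5 and 11 of 2iJ+B-A, and Bcor, a Polycomb-associated co-repressor, had 39.3 CPM in 2i, 50.05 in 2iJ and 97.99, 156 and 119 on days 2, 5 and 11 of 2iJ+B-A. Nrk, Dusp9, Zfp36l3 and Bcor lie outside the rule for named genes and were chosen after their values were seen. Runs of called genes within 100 kb of each other held 69 of the higher genes in 28 runs and 95 of the lower genes in 38 runs. Neighbouring genes are not independent, and no test was made.

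**Figure D4:**
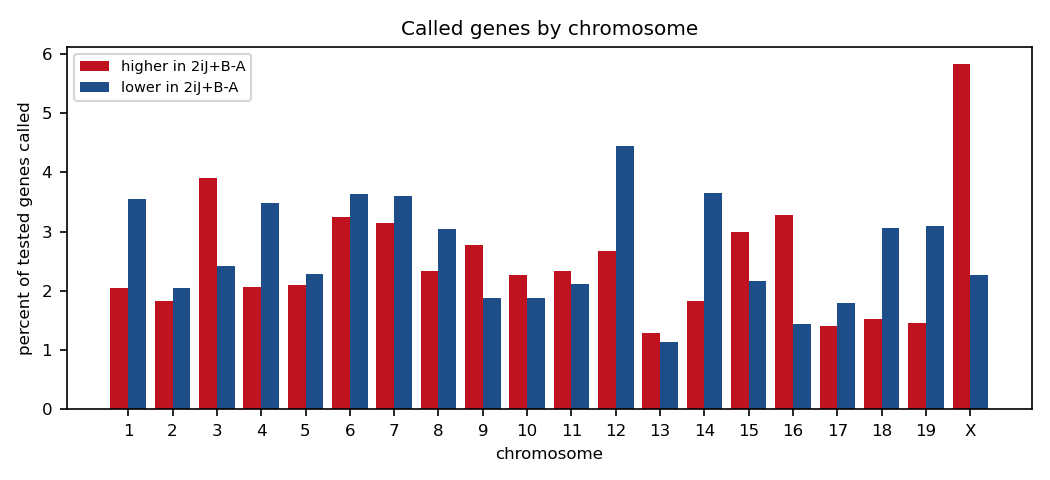
Percent of tested genes on each chromosome that were higher (red) or lower (blue) in 2iJ+B-A. The X chromosome has the largest share of higher genes, 5.83% of 618, and chromosome 12, with 4.45%, the largest share of lower genes.

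The two-cell-like state is a rare and transient condition of mESCs in which genes of the two-cell embryo, such as Zscan4 and the factor Dux, are transcribed. The 15 members tested were all lower, with a median log2 fold change of -4.51. For 4 of them (Dux, Zfp352, Tdpoz4 and Gm4340) no library of 2iJ+B-A reached 10 counts, so they were tested only because of their reference counts and could only fall. The count and the median over the list are therefore a description, and the values of the abundant members are given instead. The other 6 of the 21 listed were not tested, Tdpoz1 and Tdpoz2 for low counts and 4 (Zscan4a, Zscan4-ps1, Tcstv1 and Tcstv3) because the annotation held no gene of that symbol. In bulk RNA, fewer cells of a kind and less RNA per cell cannot be told apart. Zscan4c (chromosome 7, 11591071 to 11595896, plus strand) had 91.5 CPM in 2i, 85.4 in 2iJ and 5.75, 2.19 and 1.24 on days 2, 5 and 11 of 2iJ+B-A (log2 fold change -4.95 ± 0.55, edgeR adjusted p = 0.00972). Zscan4d had 85.5 CPM in 2i, 84.6 in 2iJ and 4.48, 2.003 and 0.85 on days 2, 5 and 11 of 2iJ+B-A (log2 fold change -5.22 ± 0.56, edgeR adjusted p = 0.00928), and Zscan4f had 47.2 CPM in 2i, 53.2 in 2iJ and 3.14, 1.49 and 0.46 on days 2, 5 and 11 of 2iJ+B-A (log2 fold change -4.99 ± 0.61, edgeR adjusted p = 0.0129). The 2 references were nearly equal, day 2 was far below them, and day 5 and day 11 were lower still.

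The Zscan4 copies are near-identical paralogs, and STAR counted pairs that map to several places apart from the genes. The level of each copy and the sum over copies therefore leave out pairs that fit more than 1 copy. Some of the pairs that were counted may still be assigned to a wrong copy. Summed over the 6 tested Zscan4 genes, the level was 316 CPM in 2i and 317 CPM in 2iJ, against 18.6, 7.15 and 3.29 CPM on the 3 days of 2iJ+B-A. The upstream windows of Zscan4c (chr7:11005495-11005744, plus strand), Zscan4d (chr7:11166149-11166398, minus strand) and Zscan4f (chr7:11397665-11397914, plus strand) are given to show how alike the copies are and what they share. These are RefSeq windows of GRCm38.p6, a build other than that of the gene coordinates. Capitals mark a match on either strand to TGATT and ATCA separated by 2 bases of any kind, written after the element that the DUX factor is known to bind.
Zscan4c: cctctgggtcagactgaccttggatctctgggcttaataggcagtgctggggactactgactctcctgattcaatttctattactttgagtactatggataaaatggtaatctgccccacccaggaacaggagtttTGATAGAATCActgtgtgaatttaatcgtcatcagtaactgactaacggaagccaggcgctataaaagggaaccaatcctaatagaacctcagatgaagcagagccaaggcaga
Zscan4d: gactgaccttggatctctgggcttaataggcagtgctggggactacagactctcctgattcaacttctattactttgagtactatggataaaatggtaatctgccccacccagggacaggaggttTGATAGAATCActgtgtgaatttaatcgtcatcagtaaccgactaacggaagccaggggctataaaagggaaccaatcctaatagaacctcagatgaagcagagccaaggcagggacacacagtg
Zscan4f: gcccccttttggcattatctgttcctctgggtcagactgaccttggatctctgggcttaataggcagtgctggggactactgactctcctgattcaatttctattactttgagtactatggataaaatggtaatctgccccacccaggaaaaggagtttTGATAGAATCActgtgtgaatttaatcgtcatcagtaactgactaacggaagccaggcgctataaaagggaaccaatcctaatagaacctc
Aligned without gaps on the motif, the windows of Zscan4c and Zscan4d were identical at 97.1% of 239 shared bases, those of Zscan4c and Zscan4f at 99.6% of 227, and those of Zscan4d and Zscan4f at 96.8% of 216. The motif occurred in 68 of 32851 promoter windows (0.207%). It was found in 5 of 317 windows of lower genes (1.58%), those of Zscan4b, Zscan4c, Zscan4d, Zscan4f and Abcb5, in 1 of 368 windows of higher genes (Psap) and in 6 of 12790 windows of genes not called (0.0469%). Since 4 of the 5 windows belong to 1 family of copies, they are not independent.

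Dux itself was at 0.85 and 1.28 CPM in 2i and 2iJ and 0, 0.13 and 0 CPM on days 2, 5 and 11, with 57 read pairs in the references and 4 in 2iJ+B-A (log2 fold change -4.51 ± 0.94, edgeR adjusted p = 0.0435). Gm5662, of a cluster of copies on chromosome 12, had 160.5 CPM in 2i, 155 in 2iJ and 13.9, 5.95 and 6.05 on days 2, 5 and 11 of 2iJ+B-A (log2 fold change -4.27 ± 0.39, edgeR adjusted p = 0.00928). Its neighbour Gm8332 and the predicted gene Gm8300 are among the 12 largest falls, with log2 fold changes of -4.99 and -4.58. The deubiquitinase genes Dub1 and Dub1a had log2 fold changes of -4.42 and -4.94, and the 5 tested Dub genes summed to 55.7 and 66.3 CPM in 2i and 2iJ and to 4.93, 2.64 and 2.54 CPM on days 2, 5 and 11. Gm12794, a further member of the 12 largest falls, had 21 CPM in 2i, 22.6 in 2iJ and 1.39, 1.02 and 0.42 on days 2, 5 and 11 of 2iJ+B-A. Zscan4e, Zscan4b and Zscan4-ps2 complete the Zscan4 genes in that group, with log2 fold changes of -5.43, -5.09 and -5.40.

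The remaining copies on the list, Gm4340, Tdpoz3 and Tdpoz4, were below 6 CPM and had log2 fold changes of -4.91, -4.17 and -4.42. Arg2, a mitochondrial arginase, had 5.86 CPM in 2i, 5.57 in 2iJ and 0.73, 1.02 and 0.91 on days 2, 5 and 11 of 2iJ+B-A (log2 fold change -2.76 ± 0.32, edgeR adjusted p = 0.0115). Sp110 had 6.61 CPM in 2i, 5.53 in 2iJ and 0.98, 0.73 and 0.72 on days 2, 5 and 11 of 2iJ+B-A (log2 fold change -2.99 ± 0.34, edgeR adjusted p = 0.0107), and Zfp352 had 1.63 CPM in 2i, 1.48 in 2iJ and 0.24, 0.032 and 0 on days 2, 5 and 11 of 2iJ+B-A (log2 fold change -4.22 ± 0.92, edgeR adjusted p = 0.0482). For 12 of the 15 genes day 2 was the highest of the 3 days, and for Arg2 it was the lowest, as for Dux, which was at 0 on both day 2 and day 11. All 15 passed without day 2 and without day 11, 4 passed without day 5, and 11 passed in a fit of all 8 libraries. With either reference library left out, 0 passed.

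Genes of core and naive pluripotency gave 6 lower and 0 higher of 23 (26.1% called, against 5.12% of all tested genes), with a median of -0.38. Nanog had 985 CPM in 2i, 773 in 2iJ and 581, 506 and 538 on days 2, 5 and 11 of 2iJ+B-A (log2 fold change -0.78 ± 0.16, edgeR adjusted p = 0.0391), and Esrrb, an orphan nuclear receptor, had a log2 fold change of -0.67. Dppa2 had 149 CPM in 2i, 163 in 2iJ and 55.6, 58.2 and 37.1 on days 2, 5 and 11 of 2iJ+B-A (log2 fold change -1.71 ± 0.20, edgeR adjusted p = 0.0109), and Dppa4, its partner and neighbour on chromosome 16, had 104 CPM in 2i, 130.1 in 2iJ and 76.9, 57.9 and 69.5 on days 2, 5 and 11 of 2iJ+B-A. Dppa2 and Dppa4 are known as activators of Dux in mESCs. Klf5 and Dppa5a had log2 fold changes of -1.39 and -0.78. The falls were modest next to those of Lefty and two-cell genes, and Pou5f1, Sox2, Zfp42 and Klf4 did not pass, with log2 fold changes from -0.39 for Zfp42 to 0.46 for Klf4. Without day 5, 1 of the 6 passed.

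Formative epiblast genes gave 2 lower and 1 higher of 17 (17.6% called, against 5.12% of all tested genes), with a median of -0.39. Dnmt3a, a de novo DNA methyltransferase, had 229.9 CPM in 2i, 325 in 2iJ and 109.9, 135 and 119 on days 2, 5 and 11 of 2iJ+B-A (log2 fold change -1.27 ± 0.17, edgeR adjusted p = 0.0147). Zic5 had 60.04 CPM in 2i, 60.2 in 2iJ and 19.8, 21.9 and 28.3 on days 2, 5 and 11 of 2iJ+B-A (log2 fold change -1.44 ± 0.18, edgeR adjusted p = 0.0129), and the higher gene was Cldn6. Fgf5 was at most 0.78 CPM and Sox3 at most 3.58 CPM in any library, without passing. For 14 of the 17 genes day 11 was the highest of the 3 days. Primordial germ cell genes gave 2 lower and 0 higher of 12 (16.7% called), with a median of -0.36. They were Prdm1 (Blimp1), the repressor that specifies germ cells, at 28.7 and 32.03 CPM in 2i and 2iJ and 9.46, 3.46 and 2.54 CPM on days 2, 5 and 11 (log2 fold change -2.64 ± 0.52, edgeR adjusted p = 0.0391), and Ifitm3, at a log2 fold change of -1.16.

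Meiosis and germline genes gave 2 higher and 1 lower of 29 (10.3% called, against 5.12% of all tested genes), with a median of 0.06. Beside Rhox6, Sycp2, of the synaptonemal complex, had 0.53 CPM in 2i, 0.74 in 2iJ and 2.36, 3.56 and 4.101 on days 2, 5 and 11 of 2iJ+B-A, and Tdrd12, of the piRNA pathway, fell to a log2 fold change of -1.40. Stra8, the retinoic acid-responsive switch of meiosis, had 22.6 CPM in 2i, 23.8 in 2iJ and 170.5, 104 and 4.95 on days 2, 5 and 11 of 2iJ+B-A and did not pass. Preferentially expressed antigen (Pramel) and Trim43 genes, which are multicopy and expressed in preimplantation embryos, gave 3 higher and 1 lower of 13 (30.8% called). Their median was 1.32. Trim43a had 6.89 CPM in 2i, 11.3 in 2iJ and 53.6, 54.05 and 74.5 on days 2, 5 and 11 of 2iJ+B-A (log2 fold change 2.67 ± 0.28, edgeR adjusted p = 0.00928), Pramel7 had 4.83 CPM in 2i, 6.54 in 2iJ and 18.9, 26.1 and 51.6 on days 2, 5 and 11 of 2iJ+B-A, and Pramef12 had a log2 fold change of 1.01. Gm13119 fell, at 10.8 and 12.3 CPM in 2i and 2iJ and 2.45, 0.92 and 0.65 CPM on days 2, 5 and 11 (log2 fold change -3.19 ± 0.55, edgeR adjusted p = 0.0276). Reads of these copies are uncertain in the same way as those of Zscan4.

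Of 27 tested genes of primitive and visceral endoderm, 1 rose and 0 fell. The share called (3.7%) is near the 5.12% over all genes and is no result about the class. The median log2 fold change of 2.60 was the highest of the 45 lists. For 19 of the 27 genes all 3 days lay above both references, against 26.8% of all genes, and day 11 was the highest day for 24. Sox7 and Foxa2, both among the 19, were tested only because of their 2iJ+B-A counts and could only rise. The median and the count of 19 are therefore a description. Col4a1, which encodes a basement membrane collagen, had 36.1 CPM in 2i, 41.5 in 2iJ and 115, 434 and 1334 on days 2, 5 and 11 of 2iJ+B-A (edgeR adjusted p = 0.0643). Lama1, a laminin chain of Reichert's membrane, had 16.3 CPM in 2i, 15.5 in 2iJ and 35.01, 60.02 and 444 on days 2, 5 and 11 of 2iJ+B-A (0.122). Sox17 had 0.43 CPM in 2i, 0.35 in 2iJ and 1.06, 5.12 and 24.1 on days 2, 5 and 11 of 2iJ+B-A, and Cubn, the cubilin receptor, had 0.5 CPM in 2i, 0.31 in 2iJ and 3.75, 5.56 and 31.5 on days 2, 5 and 11 of 2iJ+B-A. The transcription factors Gata4 and Gata6 had 2.31 and 5.41 CPM in 2i and 2iJ and 5.18, 15.6 and 72.8 CPM on days 2, 5 and 11 and 0.89 and 2.02 CPM in 2i and 2iJ and 3.67, 8.298 and 16.1 CPM on days 2, 5 and 11. With the day 2 library left out, 19 of the 27 genes passed as higher, and without day 5 or day 11 there were 0 and 6.

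Lateral, extraembryonic and cardiac mesoderm gave 1 higher (Msx2) and 0 lower of 24, with a median of 1.85. Of the 24, 4 reached 10 counts in 2iJ+B-A alone and could only rise. Pitx1, a homeobox gene of hindlimb, had 0.68 CPM in 2i, 0.31 in 2iJ and 1.88, 9.95 and 90.3 on days 2, 5 and 11 of 2iJ+B-A (edgeR adjusted p = 0.0989). Acta2, smooth muscle actin, had 4.55 CPM in 2i, 11.01 in 2iJ and 32.3, 199.7 and 70.3 on days 2, 5 and 11 of 2iJ+B-A (0.052). These had different days of maximum, day 11 for Pitx1 and day 5 for Acta2. Primitive streak genes gave 1 higher and 2 lower of 18 (16.7% called, against 5.12% of all tested genes), with a median of -0.27. The higher gene was Gsc, and the lower genes were Eomes and Nkx1-2, a homeobox gene of the caudal embryo, with 54.7 CPM in 2i, 30.0 in 2iJ and 2.45, 3.94 and 4.17 on days 2, 5 and 11 of 2iJ+B-A (log2 fold change -3.67 ± 0.34, edgeR adjusted p = 0.00928). T (brachyury) was at most 1.36 CPM in any of the 5 libraries and Mixl1 at most 0.795 CPM. Blood and endothelial genes gave 0 of 12 (median 0.35, with 3 higher in DESeq2), with Sox7 at 0.14 and 0.23 CPM in 2i and 2iJ and 0.69, 2.61 and 13.9 CPM on days 2, 5 and 11 and Runx1 at 0.46 and 0.23 CPM in 2i and 2iJ and 0.86, 2.35 and 4.95 CPM on days 2, 5 and 11.

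Hox and Cdx genes gave 1 higher (Cdx2) and 0 lower of 29 (3.45% called), with a median of 1.34. As for the mesoderm list (4.17% called), this share is near that over all genes (2.48% higher, 5.12% in either direction) and is no result about the class. No list in this report is read as changed from 1 or 2 calls in a direction. Hoxa11 had 0.071 CPM in 2i, 0.078 in 2iJ and 0.37, 6.17 and 7.71 on days 2, 5 and 11 of 2iJ+B-A (edgeR adjusted p = 0.0638), and Hoxa10 had 0.53 CPM in 2i, 0.62 in 2iJ and 1.06, 11.3 and 12.4 on days 2, 5 and 11 of 2iJ+B-A (0.0805). Both were higher on days 5 and 11 than on day 2, which itself lay above both references. Hoxa11 was below 3 counts in each reference. Of the 29 genes, 8 (Hoxa11 among them) reached 10 counts in 2iJ+B-A alone and could only rise, and 2 did so in the references alone. The median of 1.34 is therefore a description. Genes of epithelial-mesenchymal transition gave 1 higher of 16 (median 0.50), which was Cyr61, with 11.1 CPM in 2i, 15.5 in 2iJ and 34.2, 74.5 and 60.3 on days 2, 5 and 11 of 2iJ+B-A (log2 fold change 2.00 ± 0.33, edgeR adjusted p = 0.0261). Cyr61 and Amotl2, a regulator of YAP with a log2 fold change of 0.85, were the 2 that rose of 17 Hippo-YAP genes (11.8% called, 0 lower, median 0.30). Collagens, laminins and matrix gave 1 higher and 1 lower of 33 (median 0.80). The higher gene was Col6a1, with a log2 fold change of 3.15 from 9 read pairs in the references, and the lower was Lama3, a laminin chain of epithelia, with 13.2 CPM in 2i, 12.6 in 2iJ and 5.09, 4.36 and 6.45 on days 2, 5 and 11 of 2iJ+B-A. Integrins and adhesion molecules gave 1 higher and 1 lower of 22 (median 0.57). Cd44, the hyaluronan receptor, rose with a log2 fold change of 2.53, and Icam1 fell with one of -1.34. When day 2 was left out, 10 mesoderm genes, 10 Hox and Cdx genes, 12 matrix genes and 8 Hippo-YAP genes passed as higher.

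**Figure D5:**
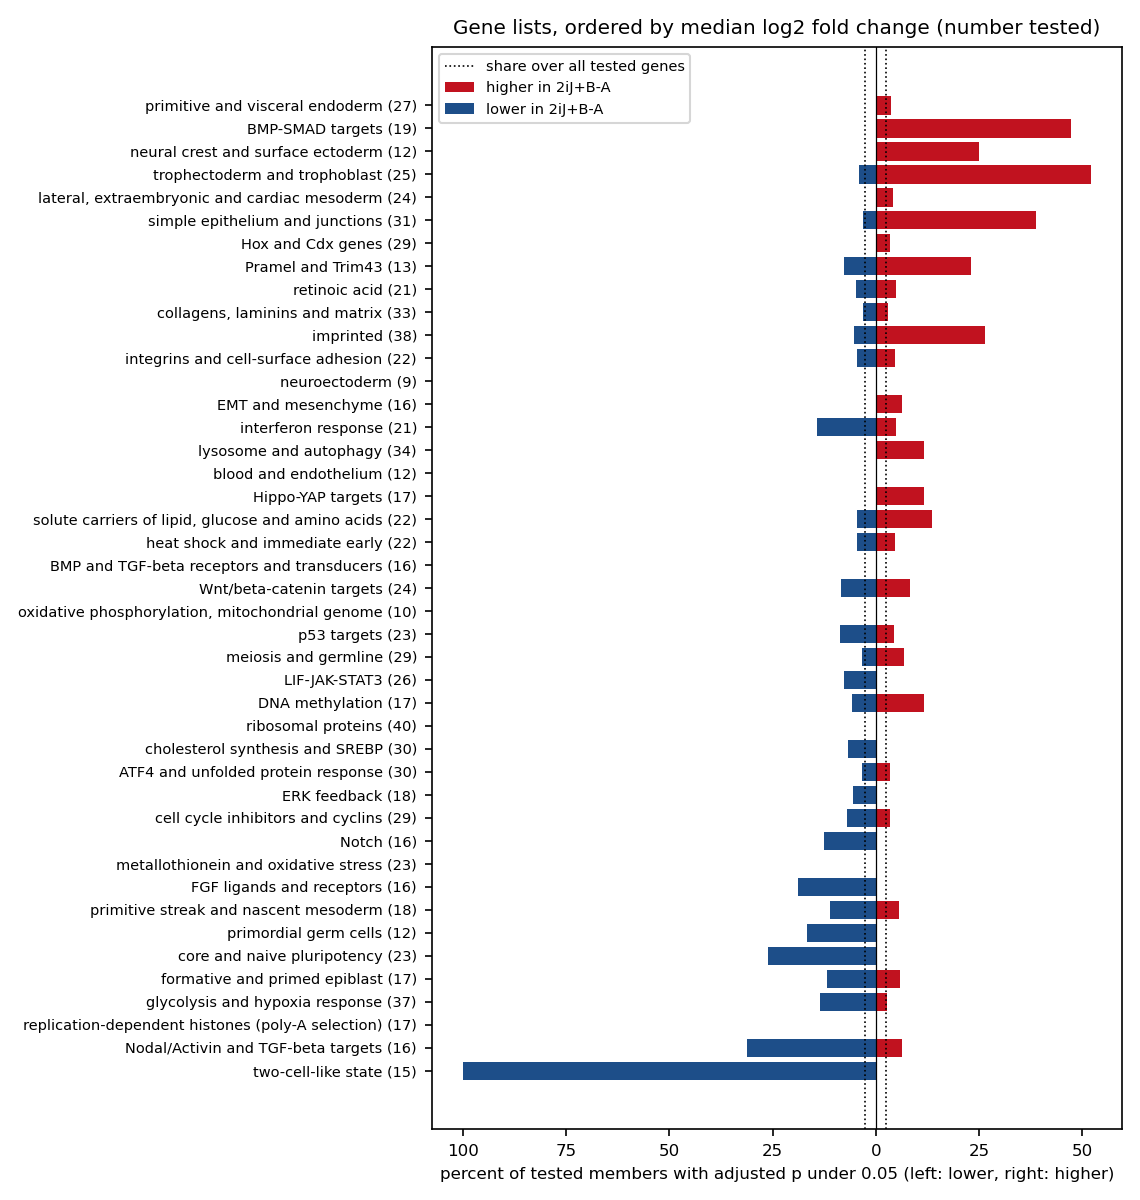
Percent of the tested members of 43 gene lists that were higher (right, red) or lower (left, blue) in 2iJ+B-A, ordered by the median log2 fold change of the list, with the number tested in brackets and dotted lines at the shares over all tested genes (2.48% and 2.64%). Two-cell genes reach 100% lower, 4 of the 15 having counts of 10 or more in the references alone, trophoblast genes 52% higher and BMP targets 47.4% higher.

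Wnt/beta-catenin genes gave 2 higher and 2 lower of 24 (16.7% called, against 5.12% of all tested genes). Their median was 0.12, under CHIR99021 in all 5 cultures. Dkk1, a secreted Wnt inhibitor that BMP is also known to induce, had 0.57 CPM in 2i, 0.93 in 2iJ and 14.1, 15.04 and 15.7 on days 2, 5 and 11 of 2iJ+B-A (log2 fold change 4.23 ± 0.32, edgeR adjusted p = 0.00928). Lgr5, a receptor for R-spondin, had 0 CPM in 2i, 0.27 in 2iJ and 6.16, 4.101 and 2.15 on days 2, 5 and 11 of 2iJ+B-A (log2 fold change 4.85 ± 1.01, edgeR adjusted p = 0.0433), from 7 read pairs in the references. Notum, a Wnt deacylase, fell at 49.5 and 37.1 CPM in 2i and 2iJ and 9.05, 17.7 and 18.5 CPM on days 2, 5 and 11 (log2 fold change -1.61 ± 0.31, edgeR adjusted p = 0.0348), and Tcf7 fell with a log2 fold change of -0.76. Axin2, a widely used readout of the pathway, had 41.7 CPM in 2i, 49.8 in 2iJ and 33.9, 45.6 and 49.7 on days 2, 5 and 11 of 2iJ+B-A and did not pass.

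FGF ligands and receptors gave 3 lower and 0 higher of 16 (18.8% called, against 5.12% of all tested genes), with a median of -0.23. Of the 16, 2 (Fgf5 and Fgf17) were tested only because of their reference counts and could only fall. Fgf17 is 1 of the 3 lower genes, so the share called and the median are a description. Fgf15 had 2.91 CPM in 2i, 4.44 in 2iJ and 0.16, 0.45 and 0.033 on days 2, 5 and 11 of 2iJ+B-A (log2 fold change -4.15 ± 0.74, edgeR adjusted p = 0.0303), Fgf17 had 3.66 CPM in 2i, 1.52 in 2iJ and 0.2, 0.19 and 0.29 on days 2, 5 and 11 of 2iJ+B-A (log2 fold change -3.55 ± 0.54, edgeR adjusted p = 0.0206), and Fgf1 had a log2 fold change of -2.54. All 3 were below 5 CPM in every library. ERK feedback genes gave 1 lower (Ier3, log2 fold change -1.49) and 0 higher of 18, with a median of -0.14, in cultures that all contained the MEK inhibitor. Notch genes gave 2 lower and 0 higher of 16 (12.5% called), with a median of -0.21. Notch4 had 21.2 CPM in 2i, 20.6 in 2iJ and 4.24, 5.05 and 1.66 on days 2, 5 and 11 of 2iJ+B-A (log2 fold change -2.60 ± 0.42, edgeR adjusted p = 0.0246), and the ligand Jag1 had 22.8 CPM in 2i, 25.2 in 2iJ and 9.21, 7.54 and 13.7 on days 2, 5 and 11 of 2iJ+B-A (log2 fold change -1.32 ± 0.28, edgeR adjusted p = 0.045).

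Genes of the LIF-JAK-STAT3 pathway gave 2 lower and 0 higher of 26, with a median of 0.03 (7.69% called, near the 5.12% over all genes, so no result about the pathway). Pim1, a kinase that STAT3 induces, had 106 CPM in 2i, 118 in 2iJ and 65.1, 65.9 and 54.3 on days 2, 5 and 11 of 2iJ+B-A (log2 fold change -0.94 ± 0.14, edgeR adjusted p = 0.0191), and the other was Klf5. Socs3, the feedback inhibitor of the pathway, was at 2.31 and 1.21 CPM in 2i and 2iJ and 3.06, 3.81 and 3.42 CPM on days 2, 5 and 11 and did not pass. Interferon response genes gave 3 lower and 1 higher of 21 (19% called, against 5.12% of all tested genes), with a median of 0.45. Irf1, a transcription factor induced by interferon-gamma, had 31.7 CPM in 2i, 43.7 in 2iJ and 8.48, 6.83 and 4.59 on days 2, 5 and 11 of 2iJ+B-A (log2 fold change -2.59 ± 0.29, edgeR adjusted p = 0.00979), and Ifi35 and Ifitm3 had log2 fold changes of -1.59 and -1.16. B2m, the light chain of MHC class I, rose with 4.97 CPM in 2i, 5.45 in 2iJ and 14.3, 15.8 and 18.2 on days 2, 5 and 11 of 2iJ+B-A (log2 fold change 1.55 ± 0.23, edgeR adjusted p = 0.0199).

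Retinoic acid genes gave 1 higher and 1 lower of 21, with a median of 0.88. Rara, a nuclear receptor of retinoic acid, had 39.9 CPM in 2i, 46.7 in 2iJ and 16.7, 18.4 and 16.1 on days 2, 5 and 11 of 2iJ+B-A (log2 fold change -1.42 ± 0.16, edgeR adjusted p = 0.00928), and Nr2f2 (COUP-TFII) had 0.64 CPM in 2i, 0.43 in 2iJ and 3.18, 6.45 and 6.25 on days 2, 5 and 11 of 2iJ+B-A (log2 fold change 3.21 ± 0.49, edgeR adjusted p = 0.0205). Cyp26a1, which degrades retinoic acid, was at 0.21 and 0.31 CPM in 2i and 2iJ and 1.304, 2.42 and 25.2 CPM on days 2, 5 and 11 and did not pass. DNA methylation genes gave 2 higher and 1 lower of 17 (17.6% called, against 5.12% of all tested genes), with a median of 0.00. Tet3, an oxidase of 5-methylcytosine, had 9.45 CPM in 2i, 9.73 in 2iJ and 21.03, 38.7 and 47.9 on days 2, 5 and 11 of 2iJ+B-A (log2 fold change 1.82 ± 0.34, edgeR adjusted p = 0.0339), Mbd2, a methyl-CpG binding protein, had a log2 fold change of 1.08, and the lower gene was Dnmt3a. Dnmt1 and Uhrf1, which maintain methylation, had log2 fold changes of 0.02 and 0.00.

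Among metabolic genes, glycolysis and the hypoxia response gave 5 lower and 1 higher of 37 (16.2% called, against 5.12% of all tested genes). Their median was -0.67. All 3 days lay below both references for 21 of the 37 genes, against 17.3% of all genes. Hk2, the hexokinase that starts glycolysis, had 319.7 CPM in 2i, 265 in 2iJ and 169, 145 and 157 on days 2, 5 and 11 of 2iJ+B-A (log2 fold change -0.98 ± 0.14, edgeR adjusted p = 0.0198). Eno1 (enolase) had 1805 CPM in 2i, 1883 in 2iJ and 1176, 1059 and 1146 on days 2, 5 and 11 of 2iJ+B-A (log2 fold change -0.79 ± 0.13, edgeR adjusted p = 0.0234), and Pfkp, a phosphofructokinase, had 458 CPM in 2i, 395 in 2iJ and 231, 165 and 226 on days 2, 5 and 11 of 2iJ+B-A (log2 fold change -1.12 ± 0.19, edgeR adjusted p = 0.0258). Pfkfb3 and Ddit4 fell with log2 fold changes of -1.21 and -0.99, and Ndrg1 rose with one of 0.82. For 29 of the 37 genes day 2 was the highest of the 3 days. Ldha, lactate dehydrogenase, shows this step, with 1539 CPM in 2i, 1508 in 2iJ and 1437, 650.1 and 714 on days 2, 5 and 11 of 2iJ+B-A, and did not pass. Without the day 2 library 25 genes of the list passed as lower, and without day 5 there were 0.

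Of 34 tested lysosome and autophagy genes, 4 rose and 0 fell (11.8% called, against 5.12% of all tested genes). Their median was 0.43, and 19 had all 3 days above both references, against 26.8% of all genes. Lamp1, a membrane protein of lysosomes, had 306 CPM in 2i, 342 in 2iJ and 556, 550.4 and 537 on days 2, 5 and 11 of 2iJ+B-A (log2 fold change 0.68 ± 0.12, edgeR adjusted p = 0.0288). Ctsd (cathepsin D) had 120.3 CPM in 2i, 142 in 2iJ and 240.4, 334 and 339.9 on days 2, 5 and 11 of 2iJ+B-A (log2 fold change 1.14 ± 0.18, edgeR adjusted p = 0.0224), and Ctsb and Psap had log2 fold changes of 0.81 and 0.82. When day 5 was left out, 0 genes of the list passed. Carriers of lipids, glucose, metals and amino acids gave 3 higher and 1 lower of 22 (18.2% called), with a median of 0.20. Fabp3, a fatty acid binding protein, had 55.3 CPM in 2i, 101 in 2iJ and 393, 406 and 394 on days 2, 5 and 11 of 2iJ+B-A (log2 fold change 2.27 ± 0.25, edgeR adjusted p = 0.00928), nearly equal on the 3 days. Slc38a4, an amino acid transporter, and Slc39a8, a metal transporter, had log2 fold changes of 1.25 and 2.77, and Slc7a7 fell with one of -1.82.

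Of 30 cholesterol synthesis genes 6.67% were called, near the 5.12% over all genes, which is no result about the class (median -0.10). The calls were 2 lower and 0 higher. They were Scd2, a stearoyl-CoA desaturase, at 1013 and 761 CPM in 2i and 2iJ and 541, 406 and 324 CPM on days 2, 5 and 11 (log2 fold change -1.14 ± 0.24, edgeR adjusted p = 0.0435), and Ebp, a sterol isomerase, at a log2 fold change of -0.90. ATF4 and unfolded protein response genes gave 1 higher (Cebpb, log2 fold change 2.43) and 1 lower (Psat1, -0.89) of 30, with a median of -0.12. Heat shock and immediate early genes gave 1 higher (Klf6, 1.35) and 1 lower (Ier2, -0.69) of 22, with a median of 0.13. Targets of p53 gave 1 higher (Perp) and 2 lower (Pmaip1, -1.61, and 9630033F20Rik, -0.58) of 23 (13% called), with a median of 0.10. Cell cycle genes gave 1 higher (Cdkn1c) and 2 lower of 29 (10.3% called), with a median of -0.16. The lower genes were Cdk6, a G1 kinase, at 18.9 and 17.4 CPM in 2i and 2iJ and 8.64, 9.63 and 7.29 CPM on days 2, 5 and 11, and Ccne1 (cyclin E1), at 118 and 106 CPM in 2i and 2iJ and 72.5, 84.9 and 67.6 CPM on days 2, 5 and 11.

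No member passed in edgeR among metallothionein and oxidative stress genes (0 of 23, median -0.22), ribosomal protein genes (0 of 40, median -0.03) and mitochondrially encoded genes of oxidative phosphorylation (0 of 10, median 0.10). With DESeq2 the corresponding numbers were 1, 0 and 0. Among these, Gpx3 was at 7.99 and 9.77 CPM in 2i and 2iJ and 15.3, 20.2 and 29.2 CPM on days 2, 5 and 11, Rps19 at 697 and 938 CPM in 2i and 2iJ and 1198, 978 and 1004 CPM on days 2, 5 and 11 and mt-Cytb at 2570.0 and 1938 CPM in 2i and 2iJ and 3018, 3572 and 3609 CPM on days 2, 5 and 11. Ribosomal protein genes were highest on day 2 for 38 of 40. Histone genes that depend on replication have mRNAs without a poly-A tail. They gave 0 of 17 in edgeR and 3 lower in DESeq2, with a median of -1.02. Their sum was 34.4 and 32.5 CPM in 2i and 2iJ and 18.0, 18.8 and 18.7 CPM on days 2, 5 and 11, so it moved with the arms. Leakage of the poly-A selection and the amount of these mRNAs in the cells cannot be told apart in this sum. Its part in the other results was not tested. Hist1h2ac, Hist1h1d and Hist1h2ab had the largest differences, with edgeR adjusted p-values of 0.0554, 0.063 and 0.156.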

How the data were processed

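Poly-A RNA was made into strand-specific libraries (NEBNext Ultra Directional) and sequenced paired-end on an Illumina HiSeq. The authors deposited raw counts of read pairs per gene, not normalized, which STAR wrote beside its alignments. The submitters' processing notes name bcl2fastq 2.17, cutadapt, STAR 2.4.2a and the genome build NCBIM37. The release of the gene annotation is not given in the sources used here. The batch adjustment (ComBat) described in the study is not part of these counts. The design text gives 2 days of culture, whereas the sample labels, used here, give days 2, 5 or 11.

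The reverse-strand counts of 5 libraries were used, with 2i and 2iJ pooled as the reference for the 3 libraries of 2iJ+B-A. A gene was tested when 2 or more of the 5 libraries had 10 or more counts. Genes that reached this in 1 arm alone could only rise or only fall, and the counts and medians of lists include such genes. The quasi-likelihood test of edgeR 4.0.16 (R 4.3.3) was run with TMM scaling and Benjamini-Hochberg adjustment over all 16235 genes, and genes with an adjusted p under 0.05 were called. CPM values are shares of the gene counts of a library, without TMM. The depth of 24532587 to 31453888 pairs sets the precision of low genes, and the 3-count level covers counting error only. Symbols were found for 37205 of 37620 genes. The comparison was repeated in 14 alternatives with other scaling, filters, tools (DESeq2 1.42.0), references, time terms and libraries left out.

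Genes named are the markers Cdx2, Hand1 and Id1, up to 4 called members in each direction of each of 45 lists (or up to 3 with the largest change where 0 passed), and the 12 largest rises and falls among called genes with at least 10 CPM in the higher arm. Other list members named, among them those that did not pass, were chosen after their values were seen. A few list members are not reported here by name. The comparison, its lists and this rule were chosen with earlier results of these data known. Promoter windows came from RefSeq (GRCm38.p6), which is not the build of the counts, and were matched by symbol.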

Additional observations from a re-analysis of the deposited data

Results flagged for a closer look

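The sorted Cdx2-GFP+ cells, 1 library on day 2 of 2iJ+B-A from another mESC line, lie outside the comparison and were read for the 12 genes with the largest rise. All 12 lay above the higher of the 2 reference libraries, as did 44.1% of all 16235 tested genes. This library stands apart, with 29.7% of pairs unmapped (2.165% to 3.85% in the 5 compared libraries) and 27.84% outside exons (9.581% to 13.21%), and the part of this in its levels was not tested. H19 was at 5018 CPM (reference 84.14), Krt7 at 109.2 (0.8951), Nxf7 at 88.54 (2.374), Epn3 at 38.51 (0.2335) and Tmprss2 at 29.13 (0.3503). Dusp8 was at 8.48 CPM (0.3892), Sct at 7.269 (0.5448) and Plac1 at 6.865 (0.5448). Smaller levels were seen for Tgm2 at 3.18 CPM (2.491), Slc22a3 at 2.171 (0.5059), Tubb4 at 1.969 (0.2335) and 4932442L08Rik at 1.918 (0.2335). The line, the sort and the treatment cannot be told apart in this library, and no test was made.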

How the results depend on the processing

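The number of called genes (832, of which 403 were higher and 429 lower) depended on the test and on single libraries. In the 14 alternatives 0 of those that could be tested changed direction, which the separation of the arms in all 832 largely fixed in advance. Without a filter on low counts 1757 genes passed (1029 higher, 728 lower), with the DESeq2 Wald test 2235 (1252 and 983), and with a slope on log2(day), compared at day 5, 2765 (1395 and 1370). With all 8 libraries in the fit 150 passed (58 and 92). Against 2i alone 9 passed (7 and 2), and against 2iJ alone edgeR called 0 (0 and 0), where 1761 genes had an unadjusted p under 0.05. Leaving out 1 library at a time gave 0 to 2632 genes, 0 to 1476 of them higher and 0 to 1156 lower. The fewest came without 2i (1667 with an unadjusted p under 0.05), and 9 came without 2iJ, which leaves 1 reference library assumed to vary like the other arm. Size factors of DESeq2, unstranded counts and protein-coding genes alone kept both counts within 1.5 times. The share of calls that were higher was 58.6% without the filter and 38.7% with all 8 libraries. The 108 named genes that passed did so in 5 to 12 of the alternatives, with a median of 8. Some named genes had no value in an alternative because the filter or the gene type removed them (H19 and Gm8332 among protein-coding genes, Fgf17 without either reference, Pax3, Lum and Postn without day 5 or day 11). The causes of the other shifts were not tested. No paired analysis was possible because replicate numbers follow accession order and each reference has 1 library. The fit had 3 residual degrees of freedom, and a gene that did not pass is not shown to be equal in both arms.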
